A study of Mus musculus with 7 samples.

Results

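Neat1, Malat1, Meg3 and Miat are long noncoding RNAs (lncRNAs), transcripts that are spliced and polyadenylated to differing degrees and encode no known protein. They were chosen by symbol as 4 of the 27998 genes of a single-cell count table of oligodendrocyte lineage cells (OLCs), and they were chosen with their levels known, so that their values are given here as a description and without a test. All 4 symbols were found in the table. The table holds 3 libraries of sorted cells from mice at P90, on a C57BL/6-B6CBA mixed background and of both sexes. All mice carried Emx1-Cre, active in the dorsal forebrain, and a Sox10 reporter that switches from GFP to tdTomato where Cre has acted. Control dOLCs (tdTomato-positive, dorsal origin) and control vOLCs (GFP-positive, ventral origin) came from 4 Emx/tdTom mice. Ectopic vOLCs (GFP-positive) came from 2 Emx/Tom/DTA mice, in which Sox10-DTA, a diphtheria toxin fragment switched on by Cre, ablated most of the dorsal OLCs. The Sox10-DTA transgene also holds a GFP cassette of its own, which the control mice lacked. The labels place the tissue in microdissected motor and cingulate cortex, and the study's methods name the neocortex and, in the dissociation steps, the corpus callosum.

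The mice of a condition were pooled, so that each condition is 1 library. No spread between mice can be had, and every interval below is a 95% interval for counting error only. The libraries kept 5804 cells (control dOLCs), 925 cells (control vOLCs) and 2562 cells (ectopic vOLCs), with a median of 3489.5, 5022 and 5318.5 UMIs (unique molecular identifiers, each counting 1 captured RNA) per cell. Cluster names are those of the authors' annotation, from oligodendrocyte precursor cells (OPCs) through committed and newly formed cells (COP/NFOL/MFOLa) and myelin-forming cells (MFOLb) to mature oligodendrocytes (MOL1, MOL2a, MOL2b and MOL5/6a to MOL5/6d). The names of OPCs and of MOL5/6 as a whole were checked against markers, and markers of the other clusters are not given here. Pdgfra, the growth factor receptor of OPCs, stood at 1450, 2174 and 1363 counts per 1000000 UMIs (CPM) in OPCs and at 16.0, 10.3 and 5.39 CPM in MOL5/6, in the order control dOLCs, control vOLCs, ectopic vOLCs. Where 3 values follow each other without a library, they are in this order. Microglial markers summed to at most 1.68 CPM in MOL5/6 of any library.

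Malat1 and Neat1 are neighbours in the genome and stay in the nucleus. Malat1 gathers at nuclear speckles, where splicing factors are stored, whereas Neat1 is the scaffold without which paraspeckles do not form. Neat1 is made in a short polyadenylated form and a long form, and the long form carries the paraspeckle. Meg3 is the maternally expressed lncRNA of the imprinted Dlk1-Dio3 locus, and Miat, also called Gomafu, is a nuclear lncRNA of the nervous system whose transcript repeats the splicing branch point motif.

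On GRCm38, Neat1 lies at chr19:5824708-5845478 and Malat1 at chr19:5795690-5802672, both on the minus strand, with 22035 bases between them. Meg3 lies on the plus strand at chr12:109541001-109571726, and Miat on the minus strand at chr5:112213228-112229395. GENCODE M21 classes all 4 as lincRNA, with 4 transcripts of Neat1, 4 of Malat1, 11 of Meg3 and 6 of Miat. The assay primes from poly(A) and reads 3′ ends, so the ends of these RNAs are shown here from the GENCODE M21 transcripts, 5′ to 3′ on the sense strand. Capitals mark the motifs named after them.
Neat1 long form, last 120 bases of Neat1-201 (chr19:5824708-5824827): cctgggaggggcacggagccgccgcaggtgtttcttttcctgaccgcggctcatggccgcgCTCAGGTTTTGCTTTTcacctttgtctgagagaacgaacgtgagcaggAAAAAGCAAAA
Neat1 short form, last 80 bases of Neat1-202 (chr19:5842307-5842386): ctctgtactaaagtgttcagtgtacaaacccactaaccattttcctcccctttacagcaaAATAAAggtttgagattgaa
Malat1, 150 bases around its longest run of A (chr19:5795960-5796109): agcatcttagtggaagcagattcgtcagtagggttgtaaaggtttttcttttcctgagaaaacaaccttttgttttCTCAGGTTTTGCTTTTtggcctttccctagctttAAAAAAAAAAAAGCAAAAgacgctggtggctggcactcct
Malat1, last 60 annotated bases (chr19:5795690-5795749): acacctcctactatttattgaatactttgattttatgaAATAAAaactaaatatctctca
Meg3, last 60 bases of its longest transcript (chr12:109571667-109571726): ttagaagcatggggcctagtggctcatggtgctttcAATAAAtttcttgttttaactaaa

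The long form of Neat1 and Malat1 shared a run of 16 bases, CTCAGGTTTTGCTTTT, and both carried the A-rich stretch AAAAAGCAAAA, which is the very end of the long form and which in Malat1 overlaps a run of 12 A. Such a T-rich element and an A-rich end are known to fold into a triple helix that protects both RNAs, which are cut there by RNase P and carry no poly(A) tail. Searched on the sense strand, the shared run stood in 2 of 18946 annotated lncRNA transcripts, 0 of them of another gene. The A-rich stretch stood in 77 (0.406%), and in the last 120 bases of 8 of 18917 (0.0423%). The short form of Neat1, the annotated end of Malat1 and Meg3 held the polyadenylation signal AATAAA in their last 50 bases, as did 5554 of 18946 transcripts (29.3%). Runs of at least 12 A stood in 66 of the 223 lncRNA transcripts of 5000 bases or more (29.6%). The counts do not tell the short from the long form of Neat1.

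Miat is shown through its repeats, since it is these that set its transcript apart. TACTAAC is in capitals.
Miat, first repeat stretch of Miat-205 (chr5:112217314-112217455): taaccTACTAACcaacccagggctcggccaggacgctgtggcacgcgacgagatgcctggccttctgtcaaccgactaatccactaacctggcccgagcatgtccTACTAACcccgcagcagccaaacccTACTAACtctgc
Miat, second repeat stretch of Miat-205 (chr5:112216757-112216807): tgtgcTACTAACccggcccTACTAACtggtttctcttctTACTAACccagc
The 9163 bases of Miat-205 held TACTAAC 6 times. At least 6 copies were found in 2 of the 223 lncRNA transcripts of 5000 bases or more (0.897%), both of them transcripts of Miat, and at least 1 copy in 41 (18.4%).

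Neat1 was a transcript of differentiated cells. In control dOLCs its level was lowest in OPCs at 86.8 CPM (75.9 to 98.9), with 132 CPM in COP/NFOL/MFOLa and 398 CPM in MFOLb. Among mature cells of control dOLCs it ran from 267 CPM in MOL2b to 522 CPM in MOL5/6b. Neighbours in this order differed beyond their counting error at 5 of 9 steps: the interval of the difference included 0 between MOL5/6b and MOL2a, and among MOL1, MFOLb, MOL5/6a and MOL5/6c. In control vOLCs MOL1 (611 CPM) and MOL5/6b (579 CPM) were highest and could not be told apart. In ectopic vOLCs the mature clusters ran from 123 CPM in MOL1 to 266 CPM in MOL5/6b, and no neighbouring pair of them differed beyond counting error, although MOL5/6a at 224 CPM (210 to 239) lay above MOL5/6d at 153 CPM (143 to 163).

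**Figure D1:**
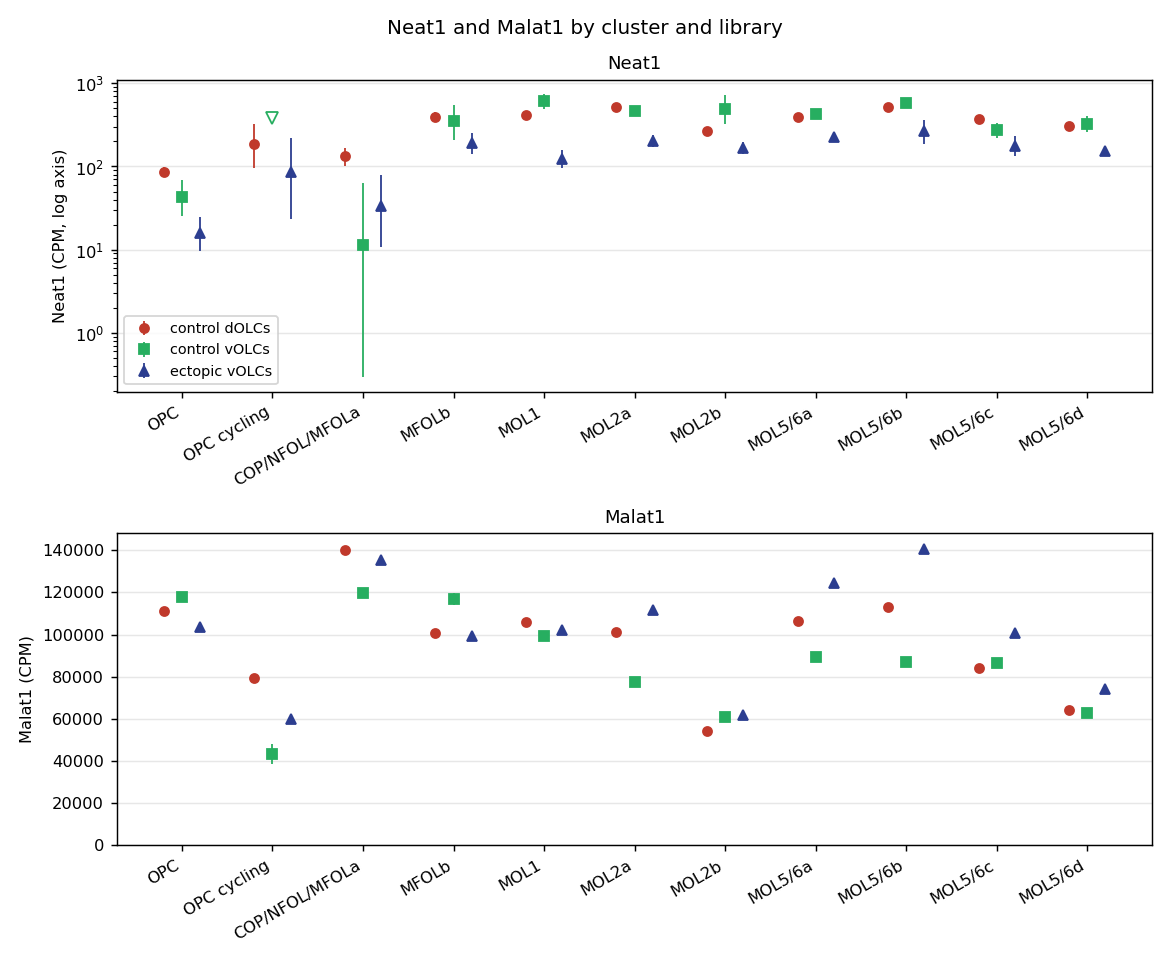
Level of Neat1 (top, log axis) and Malat1 (bottom, linear axis from 0) in CPM in each annotated cluster, with circles for control dOLCs, squares for control vOLCs, triangles for ectopic vOLCs and bars for 95% Poisson intervals of counting error. Open inverted triangles mark a library with no UMI, drawn at the value of 3 counts, and Neat1 in ectopic vOLCs lies below control dOLCs in all 11 clusters.

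In MOL5/6, the bulk of the sorted cells, Neat1 stood at 418 CPM in control dOLCs (6196 UMIs in 3777 cells) and 448 CPM in control vOLCs (1308 UMIs in 561 cells), but at 183 CPM in ectopic vOLCs (1931 UMIs in 1842 cells). The 2 control libraries lay close, with a log2 ratio of control vOLCs to control dOLCs of 0.10 (0.01 to 0.19), at which 1.12% of all filtered genes were higher by at least 1 on the log2 scale and 0.0577% lower. The ectopic library was low, with a log2 ratio of -1.19 (-1.27 to -1.12) to control dOLCs, or 43.7% of their level, and -1.29 (-1.40 to -1.19) to control vOLCs. The filter keeps a gene with 50 UMIs or more over both libraries and with a UMI in 10% or more of the cells of either. Of the genes it kept in MOL5/6, 1.95% were lower by at least 1 on the log2 scale in ectopic vOLCs than in control dOLCs, and 2.71% than in control vOLCs. Neat1 ranked 38 from the lowest of 5218 and 44 from the lowest of 5496. The count of genes in each direction moved with the scaling, from 102 lower and 10 higher (8.93% of them higher) to 46 and 22 (32.4%) with TMM factors and 40 and 23 (36.5%) with size factors, which shift the median of all genes by 0.17 and 0.19, whereas Neat1 stayed past 1 at -1.02 and -1.01.

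A lower Neat1 level ran through the mature clusters. In MOL5/6a its levels were 393, 425 and 224 CPM, and in MOL5/6d 305, 326 and 153 CPM. Against control dOLCs the log2 ratios were -0.81, -0.97, -1.06 and -0.996 in MOL5/6a to MOL5/6d, each smaller in size than the pooled value. MOL5/6a and MOL5/6d, which held 900 and 837 of the 1842 ectopic vOLCs, had less Neat1 than MOL5/6b in every library, and weighting the 4 subclusters alike gave -0.95. MOL1 showed the largest gap among mature clusters, with 411, 611 and 123 CPM (355, 97 and 64 UMIs). Against control dOLCs, Neat1 was lower in all 11 clusters, and the counting interval lay below 0 in 10 of them, cycling OPCs being the exception. Against control vOLCs it was lower in 9 of the 10 clusters with a ratio (interval below 0 in 8), and the other was COP/NFOL/MFOLa, where control vOLCs held 1 UMI.

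**Figure D2:**
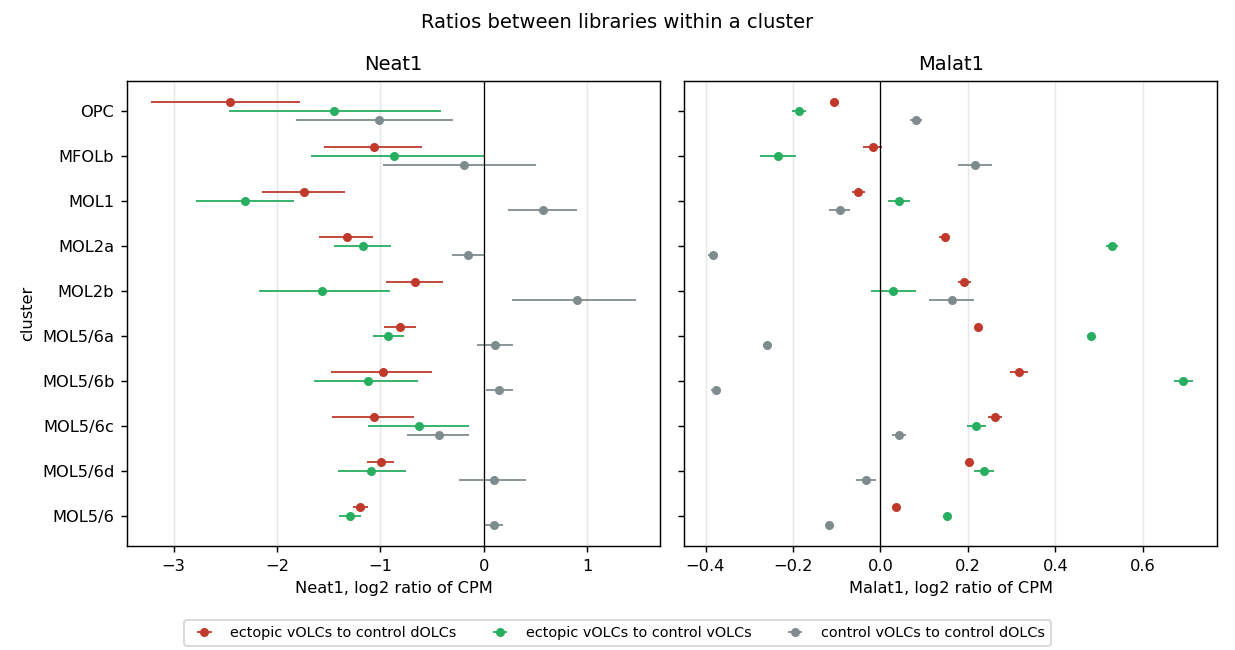
Log2 ratio of CPM between libraries for Neat1 (left) and Malat1 (right) in 10 cell groups, for the 3 pairs of libraries, with bars for 95% intervals of counting error and a line at 0. COP/NFOL/MFOLa and cycling OPCs are not drawn. In the groups drawn (OPCs, MFOLb, MOL1, MOL2a, MOL2b, MOL5/6a to MOL5/6d and MOL5/6 as a whole), Neat1 ratios of ectopic vOLCs lie between -0.63 and -2.46 against either control, while Malat1 ratios lie between -0.23 and 0.69.

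Cells with a Neat1 UMI made up 73.1%, 80.6% and 56.1% of MOL5/6, at a median of 3491, 5069 and 5478.5 UMIs per cell. After each cell was thinned to 1000 UMIs, which left out no cell, the shares were 34.3%, 34.6% and 17.0%. The shares of both controls then lay close and that of ectopic vOLCs was lower, in the same order as the CPM.

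Depth and mitochondrial content were each used to sort the MOL5/6 cells of a library into 3 equal groups. From the shallowest to the deepest cells Neat1 went from 572 to 428 to 348 CPM in control dOLCs, 611 to 451 to 367 CPM in control vOLCs and 232 to 195 to 152 CPM in ectopic vOLCs. From the lowest to the highest mitochondrial share it went from 323 to 444 to 566 CPM in control dOLCs and from 142 to 192 to 240 CPM in ectopic vOLCs. These groups were cut within a library and differ in depth between libraries, so MOL5/6 cells of all libraries were also divided at common limits into 6 windows of UMIs per cell. Within the windows the log2 ratio to control dOLCs ran from -1.10 to -0.84, with a mean of -0.95, smaller in size than the pooled -1.19. To control vOLCs it ran from -1.58 to -0.96, with a mean of -1.23. Neat1 was thus lower in ectopic vOLCs in each of the 6 windows, and its ratio to control dOLCs was below 1 in size in 5 of them. In 6 windows of mitochondrial share it ran from -1.34 to -0.98 against control dOLCs, with a mean of -1.15. In the barcodes that the authors' filter removed (388, 114 and 288), Neat1 stood at 212, 307 and 96.1 CPM, and the ectopic library had a ratio of -1.14 (-1.33 to -0.95) to control dOLCs.

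In OPCs Neat1 was sparse, with 228, 17 and 19 UMIs in 853, 121 and 330 cells. Its levels were 86.8, 43.1 and 15.8 CPM, and in ectopic vOLCs it ranked 4 from the lowest of 6110 genes against control dOLCs, where 1.91% were lower by at least 1. The ratios were -2.46 to control dOLCs and -1.45 (-2.47 to -0.41) to control vOLCs, and control vOLCs were themselves lower than control dOLCs by a ratio of -1.01 (-1.82 to -0.30). A UMI was found in 20.4%, 12.4% and 5.45% of OPCs. Of the genes that passed in OPCs, 1.84% were lower by at least 1 in ectopic than in control vOLCs, and 2.8% in control vOLCs than in control dOLCs. The ratio to control vOLCs rests on 36 UMIs, under the 50 that the filter asks for.

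RNA of mature cells was counted in the same OPCs. Mog, a protein of the outer myelin surface that OPCs should lack, stood at 440, 220 and 217 CPM in OPCs, which is 20.96%, 8.85% and 8.17% of its level in the MOL5/6 of the same library. Ptgds, a marker of MOL5/6, stood in OPCs at 18.6%, 8.77% and 9.34% of its MOL5/6 level. Neat1 in OPCs was 20.8%, 9.61% and 8.65% of its MOL5/6 level. Over all 6 MOL5/6 markers the range was 16.8% to 24.4% in control dOLCs, 8.25% to 17.4% in control vOLCs and 4.98% to 9.51% in ectopic vOLCs, and Neat1 lay within it in each library. With its share within that range, the Neat1 ratios between OPC libraries are not read as a difference in expression by OPCs, and the source of its counts there was not tested.

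**Figure D3:**
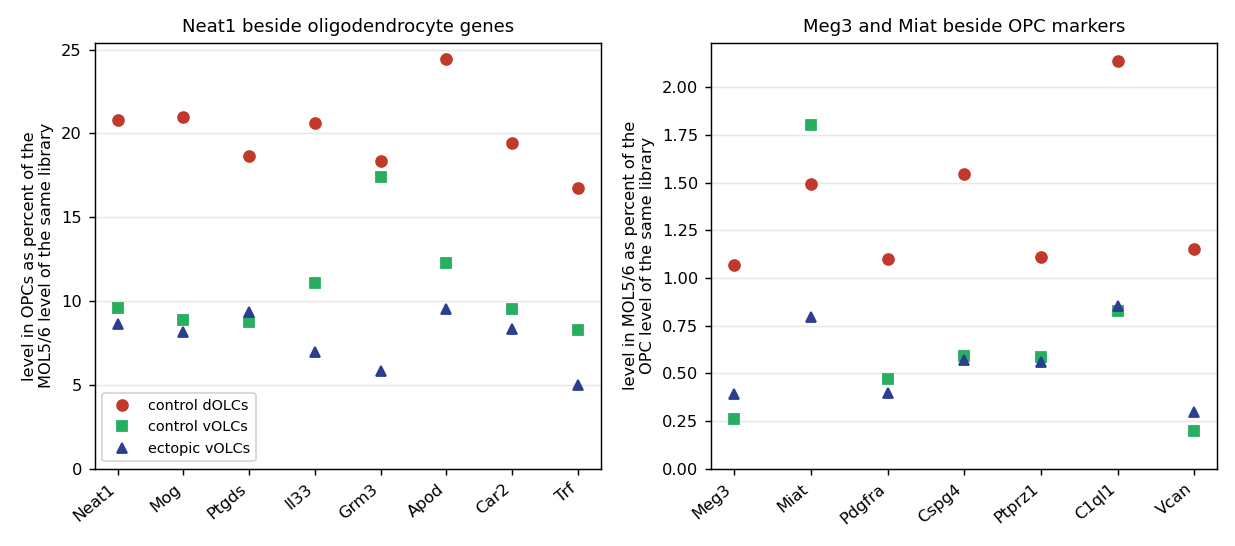
Left, the CPM in OPCs as a percentage of the CPM in MOL5/6 of the same library for Neat1, Mog and 6 MOL5/6 markers, and right, the CPM in MOL5/6 as a percentage of that in OPCs for Meg3, Miat and 5 OPC markers. Neat1 falls among the MOL5/6 markers in each of the 3 libraries, at 20.8%, 9.61% and 8.65%.

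OPCs were also sorted by their share of MOL5/6 marker UMIs into 3 equal groups within a library, a step added after the values above had been seen. In control dOLCs, Neat1 stood at 66.7, 55.6 and 139 CPM from the lowest to the highest group, and Mog at 319, 318 and 685 CPM. Both were highest in the OPCs with most marker UMIs. In control vOLCs the groups held 9, 3 and 5 Neat1 UMIs and in ectopic vOLCs 7, 9 and 3, too few to order them.

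Malat1 was counted in every cell of MOL5/6 and OPCs. It took 9.30%, 8.57% and 9.53% of all MOL5/6 UMIs, and 11.1%, 11.8% and 10.3% of those of OPCs. The median over MOL5/6 cells was 9.19%, 8.09% and 9.39%, with a range from the 5th to the 95th percentile of 4.33% to 17.3% of a cell's UMIs in control dOLCs. This spread within a library was wide beside the differences between libraries. Of all UMIs of annotated lncRNAs in MOL5/6, Malat1 made up 94.9%, 94.4% and 95.7%, and in OPCs 91.1%, 90.8% and 89.1%. All other annotated lncRNAs together took 0.502%, 0.509% and 0.428% of MOL5/6 UMIs and 1.09%, 1.20% and 1.27% of OPC UMIs.

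Clusters differed more in Malat1 than libraries did. In control dOLCs it was highest in COP/NFOL/MFOLa at 140277 CPM and lowest in MOL2b at 54253 CPM. MOL5/6b was above MOL5/6d in each library, at 113063 against 64359 CPM in control dOLCs, 87123 against 62886 CPM in control vOLCs and 140793 against 74071 CPM in ectopic vOLCs. At these counts nearly all neighbours in the order of clusters differed beyond counting error, which says nothing of the spread between mice. Cycling OPCs were low, at 79241, 43187 and 59796 CPM, in 17, 3 and 11 cells.

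In MOL5/6 the Malat1 ratio of ectopic vOLCs was 0.04 to control dOLCs and 0.15 to control vOLCs. Within the subclusters it was larger, at 0.22, 0.32, 0.26 and 0.20 in MOL5/6a to MOL5/6d against control dOLCs and 0.48, 0.69, 0.22 and 0.24 against control vOLCs. MOL5/6d, the subcluster with least Malat1 in each library, held 569 of 3777, 35 of 561 and 837 of 1842 MOL5/6 cells, and weighting the subclusters alike gave 0.26. In OPCs it was lower in ectopic vOLCs, with ratios of -0.11 to control dOLCs and -0.19 to control vOLCs. Against control dOLCs it was higher in 6 of the 11 clusters and lower in 5, among them MOL1 (-0.051). None of these values reached 1 on the log2 scale, and Malat1 ranked 3057 from the lowest of 5218 genes in MOL5/6.

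The Malat1 share moved with depth in 2 libraries. From the shallowest to the deepest of 3 groups of MOL5/6 cells it went from 109819 to 80621 CPM in control dOLCs and from 123967 to 77529 CPM in ectopic vOLCs, and it was flat in control vOLCs at 84633, 88008 and 84666 CPM. In the 6 windows of depth common to all libraries, the ectopic ratio to control dOLCs was above 0 in 5, ran from -0.05 in the deepest window to 0.43, and had a mean of 0.24. Within MOL5/6d alone it ran from 0.15 to 0.27 over the 3 windows with at least 30 cells of both libraries. This mean lay above the pooled 0.04, and the deepest window below it. In 6 windows of mitochondrial share the Malat1 ratio ran from -0.090 to 0.20 against control dOLCs and from -0.16 to 0.63 against control vOLCs, each above 0 in 4 windows.

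Transcript length moved with the ratios in the ectopic library, so each member was set beside genes of like length. Genes past the filter were split by their longest transcript into 20 groups, and 97.4% of them had a length. In MOL5/6 the longest group, from 8443 to 93092 bases, had a median ratio of -0.59 between ectopic vOLCs and control dOLCs. Neat1, placed by the 20771 bases of its long form, lay below that median by -0.60, and 11 of 255 genes of the group were lower. Placed by the 3004 bases of its short form, it lay below the median of its group (0.0087) by -1.20, and 0 of 254 genes were lower. The counts do not say which of these placements holds. Malat1, with 6983 bases, lay above the median of its group by 0.53, and 229 of 254 genes were lower. Against control vOLCs, the differences were -0.83 for Neat1 by its long form, -1.32 by its short form and 0.50 for Malat1. In OPCs, Neat1 lay below its group by -2.29 (long form) or -2.61 (short form), whereas Malat1 (-0.01), Meg3 (0.29) and Miat (0.35) lay near or above theirs.

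**Figure D4:**
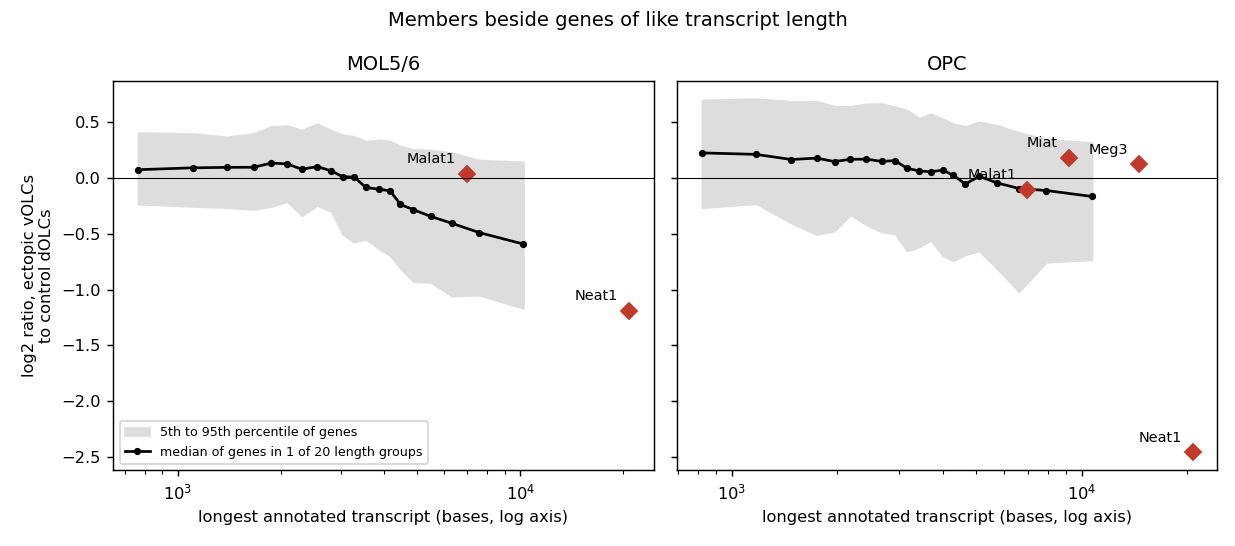
Ratio of ectopic vOLCs to control dOLCs on the log2 scale against the longest annotated transcript (bases, log axis) in MOL5/6 and in OPCs, with the median and the 5th to 95th percentile of 20 groups of genes and the members as diamonds. In MOL5/6 Neat1 at -1.19 lies below the longest group and Malat1 at 0.04 above its own.

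Meg3 marked OPCs. Its level there was 1026 CPM in control dOLCs (2693 UMIs), 1186 CPM in control vOLCs (468 UMIs) and 1114 CPM in ectopic vOLCs (1339 UMIs). Control vOLCs were higher than control dOLCs by a log2 ratio of 0.21 (0.06 to 0.35), where 2.39% of filtered genes were higher by at least 1. The ectopic library lay between the controls, with log2 ratios of 0.12 (0.02 to 0.21) to control dOLCs and -0.09 (-0.24 to 0.06) to control vOLCs. The direction against control dOLCs did not hold: it was -0.077 (-0.25 to 0.099) after thinning to 1000 UMIs a cell and 0.061 (-0.035 to 0.16) without the highest Scrublet scores. From the shallowest to the deepest of 3 equal groups of OPCs, Meg3 went from 1390 to 777 CPM in control dOLCs, 1299 to 1047 CPM in control vOLCs and 1356 to 880 CPM in ectopic vOLCs. Genes higher by at least 1 were 0.556% of those past the filter in OPCs against control dOLCs and 5.3% against control vOLCs, and Meg3 was not among them. A Meg3 UMI was found in 90.04%, 93.4% and 93.9% of OPCs at a median of 2795, 3454 and 3421.5 UMIs per cell, and in 3.94%, 1.60% and 2.44% of MOL5/6.

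Meg3 was low from the first step of differentiation. In cycling OPCs it stood at 437, 379 and 425 CPM (28, 3 and 20 UMIs), and in COP/NFOL/MFOLa at 48.1, 80.3 and 20.1 CPM (24, 7 and 3 UMIs). The log2 ratio of COP/NFOL/MFOLa to OPCs in control dOLCs was -4.41 (-5.06 to -3.84). From MFOLb on, no cluster of control dOLCs passed 24.0 CPM, and neighbouring clusters could not be told apart. The log2 ratio of OPCs to MOL5/6 was 6.55, 8.59 and 8.00.

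In MOL5/6 Meg3 was counted at shares of its OPC level at the low end of those of OPC markers. Meg3 stood there at 1.07%, 0.260% and 0.391% of its OPC level, and Pdgfra at 1.10%, 0.473% and 0.396%. Ptprz1, a receptor phosphatase of OPCs, stood at 1.11%, 0.587% and 0.562%. The Meg3 ratio of -1.34 (-1.84 to -0.86) between ectopic vOLCs and control dOLCs in MOL5/6, from 46 and 163 UMIs, is not read as a difference in expression at shares this low, and Meg3 did not pass the filter there.

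Neurons are rich in Meg3. In the same OPCs the 8 neuron markers summed to 120, 132 and 111 CPM in OPCs, most of it Snap25 and Gad1, and Rbfox3 and Slc17a7 had at most 5 UMIs in any library. Snap25 stood at 60.9, 73.5 and 66.5 CPM in OPCs and at 5.53, 4.79 and 4.82 CPM in MOL5/6. OPCs with no neuron marker UMI held Meg3 at 1030, 1190 and 1119 CPM, and OPCs with such a UMI at 1017, 1176 and 1105 CPM. Of the other genes of the imprinted locus, Mirg, a host of microRNAs, had 10, 6 and 5 UMIs in OPCs, and Dlk1, Rtl1 and Dio3 had none in OPCs of any library, where 3 counts would be 1.14, 7.60 and 2.50 CPM.

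**Figure D5:**
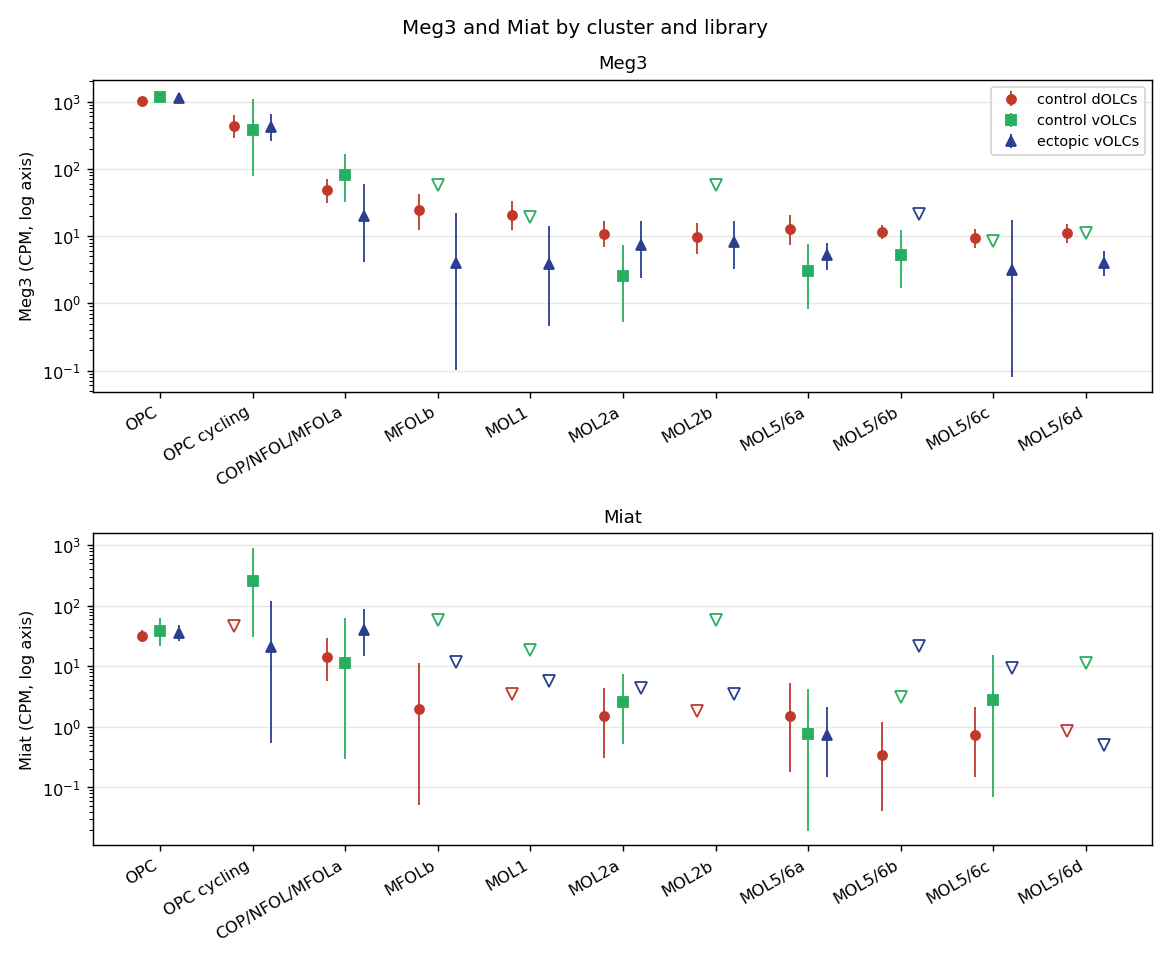
Level of Meg3 (top) and Miat (bottom) in CPM on log axes in each annotated cluster, drawn as for Neat1. Meg3 lies between 1026 and 1186 CPM in OPCs of the 3 libraries and at no more than 24.0 CPM from MFOLb on.

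Miat was a sparse OPC transcript. It stood at 31.6, 38.0 and 35.8 CPM in OPCs (83, 15 and 43 UMIs), with a UMI in 9.14%, 10.7% and 11.8% of them and in 0.185%, 0.357% and 0.163% of MOL5/6. The libraries overlapped, with log2 ratios of ectopic vOLCs of 0.18 (-0.39 to 0.73) to control dOLCs and -0.09 (-0.96 to 0.87) to control vOLCs. Differences within these intervals were not detectable at this depth. In MOL5/6, Miat had 7, 2 and 3 UMIs, and the log2 ratio of OPCs to MOL5/6 was 6.07 (4.96 to 7.43) in control dOLCs. COP/NFOL/MFOLa held 7, 1 and 6 Miat UMIs, and its ratio to OPCs in control dOLCs was -1.17 (-2.53 to -0.06), against -4.41 for Meg3 at the same step.

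Likeness of pattern was measured by Pearson correlation of log2(CPM + 10) over the 26 pairs of cluster and library with at least 30 cells, which share libraries and so are not independent, among genes with a mean of at least 20 CPM. Neat1 was most like Adamtsl4 (0.94), Hcn2 (0.92), Sez6l2 (0.92), Jup (0.92) and Olfml1 (0.92). The genes most like Malat1 reached less, Psap at 0.79, Clptm1 at 0.77 and mt-Nd4, Rpn1 and mt-Nd2 at 0.75. Meg3 was most like Ly6h, Tmem255b, Chst5, Cspg4 and Ramp2 (0.98 to 0.99), and Miat most like Gria3, Chst5, Csmd1, Rcn1 and Sox6 (0.98 to 0.99). Among the members, Meg3 and Miat were alike (0.95), Neat1 ran against both (-0.76 and -0.77), and Malat1 followed neither (-0.20 with Neat1 and 0.30 with Meg3). Meg3 and Miat are sparse in mature clusters, Miat with at most 3 UMIs in each. Their correlations thus largely restate the split between OPCs and mature cells.

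Annotated lncRNAs other than the members numbered 36 past the filter in MOL5/6. Of these, 1 (2.78%) was lower by at least 1 in ectopic vOLCs than in control dOLCs and 0 were higher, beside 1.95% and 0.192% of all 5218 genes. Their median was -0.17, beside -0.03 over all genes. The median of these lncRNAs was -0.0016 with TMM factors and 0.014 with size factors, beside 0.14 and 0.16 over all genes. These scalings shift every gene alike, so its place below the median of all genes could not change. The lower one was Kcnq1ot1, the lncRNA of an imprinted cluster that stays at its site of transcription, at 86.5, 67.1 and 37.0 CPM (log2 ratio -1.23, -1.39 to -1.06, and -0.86 to control vOLCs). In OPCs the Kcnq1ot1 ratio was -0.07 (-0.28 to 0.13). Neither Kcnq1ot1 nor the lncRNA median was set beside genes of like length. The longest group of genes in MOL5/6 had a median of -0.59 and a 5th percentile of -1.17 against control dOLCs. Among the 27 lncRNAs whose ratios to both controls had 1 sign, the next lowest besides Neat1 were Gm37494 (-0.97), Zswim6 (-0.94) and AY036118 (-0.87). Zswim6 counts as a lncRNA here only because M21 classes the locus as a processed transcript. Whether its RNA is noncoding was not tested. Gm13293 (0.32) and Snhg6 (0.27) were highest of these 27. Xist, which coats the inactive X chromosome, stood at 968, 812 and 893 CPM.

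In OPCs 47 annotated lncRNAs other than the members passed the filter, of which 4 were higher and 3 lower by at least 1 against control dOLCs. These are 8.51% and 6.38% of them, beside 0.556% and 1.91% of all 6110 genes, and the medians were 0.10 and 0.08. Snhg11, given below, is not in this class. The higher ones include genes that passed the filter only through ectopic vOLCs. Against control vOLCs there was 1 of 40 in each direction (2.50%), beside 5.3% higher and 1.84% lower of all genes, and the median of all lncRNAs but the members was -0.12. Among the 36 lncRNAs whose ratios to both controls had 1 sign, the lowest after Neat1 were 1700047M11Rik (-1.22), AY036118 (-1.12) and 4933431E20Rik (-1.04). AY036118 and Gm42418 (-0.62) overlap on opposite strands, and their counts are uncertain. Among the higher ones, Gm26870 held 11, 2 and 1624 UMIs. Sp3os (37, 7 and 37 UMIs) and Gm17750 (40, 12 and 40 UMIs) had ratios of 1.13 each. With so few UMIs in the 853 OPCs of control dOLCs, these genes could pass only through the 330 OPCs of ectopic vOLCs. That is the library in which they were higher, so their place among the higher genes depends on the filter.

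RNAs that encode proteins of the bodies of Neat1 and Malat1 moved less than Neat1, and protein levels were not measured. Of the genes of 13 paraspeckle proteins, 11 passed the filter in MOL5/6 and 0 moved by 1 or more, beside 1.95% lower and 0.192% higher of all genes. The median ratio to control dOLCs was -0.27, -0.10 with TMM factors and -0.085 with size factors, and that to control vOLCs was -0.13. Tardbp (-0.58), Smarca4 (-0.56), Cpsf6 (-0.50) and Matr3 (-0.39), which encode RNA-binding or chromatin proteins found in paraspeckles, had the ratios of largest size. This order holds for CPM only, since both scalings add 0.17 or 0.19 to each ratio. In OPCs 12 passed, with a median of -0.05. The genes of the 14 nuclear speckle proteins had a median of -0.16 in MOL5/6, below the -0.03 of all genes, and -0.01 in OPCs. TMM and size factor scaling gave 0.0071 and 0.023 in MOL5/6, a shift that all genes share. Prpf38b (-0.52), Srsf1 (-0.51), Srsf5 (0.41) and Luc7l3 (-0.40), all of the splicing machinery, had the ratios of largest size in CPM, an order that the scaling changes as well, and 0 of 14 moved by 1 or more.

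Of the 6 listed nuclear-retained lncRNAs in the table other than the members, 2 passed the filter in MOL5/6, Kcnq1ot1 and Xist. In OPCs 3 passed, among them Snhg11 with 22, 3 and 182 UMIs. Snhg11 is not in the class of annotated lncRNAs counted above. The small nucleolar RNA host genes, whose introns hold these RNAs, had a median of 0.23 over 4 genes in MOL5/6 (0.40 with TMM factors, 0.41 with size factors and 0.12 against control vOLCs) and 0.20 over 4 in OPCs, where Snhg9 reached 1.18 (0.71 to 1.66). Against control vOLCs Snhg9 was at -0.43 (-1.02 to 0.19) in OPCs, and control vOLCs were themselves at 1.61 against control dOLCs. Immediate early and heat shock genes, which are known to respond to tissue handling, had a median of -0.14 over 4 genes in MOL5/6, beside -0.03 over all genes. TMM and size factors gave 0.029 and 0.045, a shift that all genes share. In OPCs their median was 0.53 over 6 genes, led by Dusp1 (0.58), Ier2 (0.57), Fos (0.54) and Jun (0.52). None of these 6 is a heat shock gene. Hspa1a, a heat shock gene that did not pass, had 23 UMIs in ectopic vOLCs and 79 in control dOLCs (-0.65), and with no filter beyond 1 UMI the median was 0.19. None of the 6 moved by 1 or more, beside 0.556% higher and 1.91% lower of all genes, and their part in the lncRNA ratios of OPCs was not tested.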

How the data were processed

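Single-cell RNA sequencing (10x Chromium 3′ v2) was carried out by the authors on sorted OLCs, and the reads were counted with Cell Ranger 2.1.1 per the submitters' processing notes (3.1.0 in the study's methods, mm10). The authors deposited raw UMI counts of 27998 genes in 10081 barcodes, not normalized, all whole numbers. They also deposited, for each cell, its library, its cluster and the percentage of mitochondrial counts. The 4 P0 single-nucleus samples were not analysed here.

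The authors' filter, which keeps cells of more than 200 but fewer than 3000 genes and no more than 15% of mitochondrial counts, left 9291 cells, the same as in their annotation. Among these, 39 barcode sequences occurred in more than 1 library, in 78 cells. Scrublet in scanpy called 16 cells (0.172%) which is too few for a working call, so doublets were left in. UMIs were summed over cells of a library and cluster and divided by their total (CPM). MOL5/6 joins 4 subclusters, and OPCs leave out cycling cells. Levels carry exact Poisson intervals, ratios conditional exact binomial intervals and shares Clopper-Pearson intervals, at 95%. With 0 UMIs, the limit given is 3 counts. No test was made with 1 library a condition. Sums and ratios were tested on simulated data.

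Transcripts, positions, biotypes and sequences came from GENCODE M21 (GRCm38), which held 26646 of the symbols (95.2%), and 5452 of them were annotated lncRNAs of symbols not shared with a protein-coding gene. Members and lists (paraspeckle and nuclear speckle proteins, nuclear-retained lncRNAs, small nucleolar RNA hosts, the Dlk1-Dio3 locus, immediate early and heat shock genes, cell type markers) were chosen with earlier results of these data known. Named were the members, up to 4 genes of largest ratio in a list, the 5 highest and lowest lncRNAs that moved alike against both controls, and the 5 genes of most similar pattern. Other genes named are markers, or were chosen after their values were seen (Xist, Mirg and the rest of the imprinted locus). Alternatives were TMM factors (edgeR 4.0.16), size factors (DESeq2 1.42.0), totals without the members, no filter beyond 1 UMI, means over cells, control vOLCs as control, thinning to 1000 UMIs, at most 10% mitochondrial counts, leaving out 519 cells with the highest Scrublet scores, equal weight of subclusters and 10 groups of length. Windows of depth over all libraries and the short form's length were added after seeing the data. Other tools were R 4.3.3, Python 3.11.15, numpy 2.4.6, scipy 1.17.1, pandas 2.3.3, scanpy 1.11.5 and matplotlib 3.10.9.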

Additional observations from a re-analysis of the deposited data

Results flagged for a closer look

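The Malat1 ratio of ectopic vOLCs had opposite signs in MOL5/6 as a whole and in OPCs. In MOL5/6 it was 0.035 against control dOLCs and 0.15 against control vOLCs, and in OPCs it was -0.11 and -0.19. Each of the 4 counting intervals lay on 1 side of 0. The 2 comparisons of a cell type share the ectopic library, and the difference between the cell types was not tested. Within windows of mitochondrial share the MOL5/6 ratio was below 0 in 2 of 6 against either control, and MOL1, also mature, stood at -0.051 against control dOLCs.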

How the results depend on the processing

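Of 144 recomputed values of 40 results, 101 stayed within the interval of the reported value (counts within 1.5 times of it), 40 left it, and 3 changed sign where the reported interval lay on 1 side of 0. Of the 128 that are no counts, 14 changed sign in all, 10 of them medians of lists. With 1 library a condition none of these is a test. Miat, Neat1 in OPCs and Meg3 in MOL5/6 rest on few UMIs.

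Ratios of ectopic vOLCs to control dOLCs in MOL5/6 moved with the scaling: Neat1 to -1.02 (TMM) and -1.01 (size factors), Malat1 to 0.20 and 0.22. Control vOLCs as the control gave -1.29 for Neat1, 0.15 for Malat1 and, with a changed sign, 0.50 for Meg3. Subclusters weighted alike gave -0.95, 0.26 and -1.88. Windows of UMIs per cell weighted alike, chosen after seeing the data, gave -0.95 for Neat1 and 0.24 for Malat1. Thinning gave 0.056 for Malat1 and -0.84 for Meg3, the mean over cells 0.055 for Malat1, and at most 10% mitochondrial counts 0.023. In OPCs, control vOLCs gave -1.45 for Neat1, -0.19 for Malat1 and -0.090 for Meg3, which also changed sign on thinning (-0.077). Malat1 in OPCs was -0.12 with size factors or totals without the members, -0.077 as a mean over cells, -0.073 thinned and -0.13 without the highest Scrublet scores.

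With no filter beyond 1 UMI, the lncRNAs other than the members had a median of 0.16 in MOL5/6 (276 lower and 412 higher by 1 or more) and 0.54 in OPCs (59 lower and 515 higher), where genes with few UMIs enter. Against control vOLCs the OPC median was -0.12, with 1 lower and 1 higher, and the immediate early median 0.73. By the length of its short form, also chosen after seeing the data, Neat1 lay at -1.20 to its group in MOL5/6. With 10 groups of length Malat1 lay 0.57 above its group in MOL5/6 and at -0.035 in OPCs. Thinned, the ratio of OPCs to MOL5/6 in control dOLCs was -2.50 for Neat1 and 7.04 for Meg3, and for Malat1 it was 0.24, 0.41 and 0.11 in control dOLCs, control vOLCs and ectopic vOLCs. Without the members the nuclear-retained lncRNAs left too few genes for a median. Apart from the filter, the cause of these shifts was not tested. No paired analysis was possible because 1 library stands for a condition and none carries a replicate number.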
